A study of Homo sapiens with 18 samples.

Results

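Expression of 9 genes that set the pace of the G1 phase was examined in wild-type (WT) PGP1 cells and in PCGF6-knockout (PCGF6-KO) cells derived from them: the inhibitors of cyclin-dependent kinases (CDKs) CDKN1A, CDKN1B, CDKN2A, CDKN2B, CDKN2C and CDKN2D, and the D-type cyclins CCND1, CCND2 and CCND3. The genes were chosen by name, with earlier results of these data known: the INK4 inhibitors, the CIP/KIP inhibitors p21 and p27 and the whole D-type cyclin family. All 9 were found among the 57133 genes of the count table. PGP1 is an established human induced pluripotent stem cell (PSC) line. RNA-seq covered 3 groups of untreated cells in mTeSR1 medium on Matrigel: the WT line, PCGF6-KO clone 1 and PCGF6-KO clone 2, with 2 libraries each. Each knockout line is 1 clone that grew from a single sorted cell after CRISPR-Cas9 cutting in the first exon of PCGF6, with deletions of different length on both alleles, and how the WT line was derived is not given in the sources used here, so effects of the knockout and of single-cell cloning cannot be told apart. The labels do not say that the libraries of a group came from separate cultures, so p-values measure the spread between these libraries, which may be technical.

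D-type cyclins bind CDK4 or CDK6, and the resulting kinases phosphorylate the RB family of pocket proteins, which releases E2F factors and lets cells enter S phase. INK4 proteins (CDKN2A, CDKN2B, CDKN2C, CDKN2D) bind CDK4 and CDK6 alone and keep D-type cyclins off them, while CIP/KIP proteins (CDKN1A, CDKN1B) bind cyclin-CDK complexes and block mainly CDK2. Pluripotent cells are known for a short G1 phase and low levels of most CDK inhibitors, and the INK4 locus that holds CDKN2A and CDKN2B is a classical target of Polycomb repression. PCGF6 is a subunit of the variant Polycomb complex PRC1.6.

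The libraries held between 15877396 and 18918609 counts, and 17672 genes passed the filter on low counts. PCGF6, the targeted gene, had 268 and 300 counts in WT, against 99 and 103 for clone 1 and 187 and 159 for clone 2. It was lower in both clones (log2 fold change −1.67 in clone 1 and −0.77 in clone 2), so both knockout lines still held PCGF6 RNA. These counts do not measure protein, and the authors report that Western blot, genomic PCR and qRT-PCR were used to check the knockout. Of 9 pluripotency markers, 0 were called higher and 1, SOX2, lower in PCGF6-KO by edgeR and by DESeq2 (3 higher and 4 lower at an unadjusted p under 0.05), and their summed level was 8510 to 8836 CPM (counts relative to the TMM-scaled size of the library) in WT and 7774 to 8422 CPM in PCGF6-KO. Of 12 markers of primitive streak and mesendoderm, 11 were tested and all 11 were called higher, with a summed level of 4.19 to 5.47 CPM in WT and 740 to 1026 CPM in PCGF6-KO. SOX17, HAND1, MESP1 and CDX1 were at 0 counts in both WT libraries. Of 5 neural markers 3 were tested, 1 was higher and 0 were lower. Of 6 fibroblast markers, 5 were higher and THY1 was lower, and their summed level was 832 to 844 CPM in WT and 1705 to 2012 CPM in PCGF6-KO. The tested markers SOX17, HAND1, CDX1, LUM and DCN had 0 counts in WT. They passed the filter only through the PCGF6-KO libraries and could not have been called lower, so the filter partly set these marker counts. Among all tested genes edgeR called 14.9% higher and 8.7% lower, with 24.8% and 21.6% at an unadjusted p under 0.05. In such bulk libraries, more cells that express a gene and more RNA per cell cannot be told apart, and the part of these other cell states in the values below was not tested.

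The 2 INK4 genes with the widest change, CDKN2A and CDKN2B, lie side by side on chromosome 9, and the 250 bases before an annotated start of each are shown because the data bear on both genes at once. They are from RefSeq (GRCh38.p14), both on the reverse strand, at chr9:21995325-21995574 for the upstream start of CDKN2A (that of the ARF transcript) and at chr9:22009306-22009555 for CDKN2B. Capitals mark CpG dinucleotides.
CDKN2A: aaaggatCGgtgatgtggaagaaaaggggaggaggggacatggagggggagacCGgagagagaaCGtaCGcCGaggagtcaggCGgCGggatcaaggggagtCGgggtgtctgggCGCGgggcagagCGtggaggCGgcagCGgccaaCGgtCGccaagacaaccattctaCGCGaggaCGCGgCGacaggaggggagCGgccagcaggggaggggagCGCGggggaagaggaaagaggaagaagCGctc
CDKN2B: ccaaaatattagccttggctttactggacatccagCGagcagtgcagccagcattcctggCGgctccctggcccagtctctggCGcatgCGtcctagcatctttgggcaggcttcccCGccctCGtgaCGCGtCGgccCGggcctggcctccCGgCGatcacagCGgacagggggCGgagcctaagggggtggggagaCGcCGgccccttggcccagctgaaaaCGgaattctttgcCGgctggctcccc

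The CDKN2A window shown held 24 CpG dinucleotides and the CDKN2B window 18. Over 34943 windows of the same length before all RefSeq starts the median was 11, with quartiles of 3 and 23. Of these windows 76.4% held fewer than the CDKN2A window shown and 63.3% fewer than the CDKN2B window. The window before the downstream start of CDKN2A, at chr9:21974858-21975107, held 20, more than 67.6% of all windows. That window is not shown because it overlaps an annotated untranslated region. Windows were found for 7 of the 9 genes, 12 windows in all, since some genes have several starts. The windows of CDKN1A, which was called higher, and of CDKN1B, which was not, each held 27 CpG dinucleotides, and that of CDKN2D held 33. Those of CDKN2C held 7, 35 and 10, and those of CCND3 held 3, 26 and 26. No window was found for CCND1 and CCND2, which were called higher, so they are outside this comparison. The E-box CACGTG, a binding motif of MAX, was in 2 of the 12 windows, both before starts of CDKN2C, and in 6.32% of all windows. GCGGGAA, a binding motif of E2F6, was searched on both strands and was in 1 of the 12 windows, again before CDKN2C, and in 5.51% of all windows. The window of CDKN2B-AS1, a noncoding gene of the same locus as CDKN2A and CDKN2B, is not among the 12. It held GCGGGAA and no CACGTG. These matches describe letters in these windows only.

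In WT the 9 genes ranged from 0 counts to a level above most tested genes. On a per-length scale (TPM, the transcript share of a library, computed from the deposited gene lengths), CCND1 stood highest with 107 ± 1.10 TPM (SD, n = 2), above 89.2% of the tested genes. CCND2 (55.8 ± 1.19 TPM) and CDKN1B (54.0 ± 2.004 TPM) followed and overlapped between libraries, then came CCND3 (18.97 ± 0.646 TPM) and CDKN2D (4.76 ± 0.704 TPM). CDKN1A, CDKN2A, CDKN2B and CDKN2C were at 0.220 TPM or below in WT, and neighbours among these 4 in the order overlapped. Among the 6 inhibitors, WT PSCs therefore held 1 abundant transcript, CDKN1B, which made up 91.2 ± 0.769% of their summed TPM. The other CDK inhibitor genes CDKN3 (87.5 TPM in WT) and CDKN1C (6.49 TPM in WT) are outside this sum. In clone 1 and clone 2 CCND1, CCND2, CDKN1B and CCND3 kept ranks 1 to 4, while CDKN2B moved to rank 5 and CDKN2A to rank 6, above CDKN2D, with no overlap between neighbours in either clone.

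A gene was called where its log2 fold change exceeded 0.6 in either direction and its p, from the quasi-likelihood test of edgeR, was under 0.05 after Benjamini-Hochberg adjustment over all tested genes. Of the 9 genes 8 were tested, because CDKN2C did not pass the filter. CDKN2A, CDKN2B and CDKN1A had at most 6 counts in a WT library and passed the filter only through the PCGF6-KO libraries. They could hardly have been called lower, so the filter partly set the direction of the counts and the median given next. With both clones taken as 1 group of 4 libraries against the 2 of WT, 5 of the 8 were called higher (CDKN2A, CDKN2B, CDKN1A, CCND1 and CCND2), where 14.9% of all tested genes were called higher. None was called lower, where 8.7% of all tested genes were; 1 (CDKN1B) had an unadjusted p under 0.05 in that direction, where 21.6% of all tested genes did, and DESeq2 also called 5 higher and 0 lower. The median log2 fold change was 1.63 over the 8 genes and 0.00 over all tested genes. In 6 of the 8 genes all 4 PCGF6-KO libraries lay above both WT libraries (29.5% of all tested genes), and in 1, CDKN1B, all 4 lay below (27.6%). The plot of CPM by library shows these separations gene by gene.

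CDKN2B, which encodes p15INK4B, a CDK4 and CDK6 inhibitor known as a target of TGF-beta signaling, had 0 and 2 counts in WT, against 231 and 217 for clone 1 and 353 and 354 for clone 2. It was nearly absent from WT and clearly present in every PCGF6-KO library, at 12.01 ± 0.102 CPM (SD) for clone 1 and 20.8 ± 1.83 CPM for clone 2 (n = 2 each). The ratio of PCGF6-KO to WT was 266-fold, with an exact 95% interval of 73.6 to 2202-fold that covers counting error only and is wide because WT held 2 counts in all. The log2 fold change was 7.91 (standard error, SE, 0.65, edgeR adjusted p = 2.0e-05). It ranged from 7.01 without replicate 1 of WT to 11.17 without replicate 2, a value that depends on the prior count because the remaining WT library has 0 counts, and stayed called in both cases.

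CDKN2A had 6 and 0 counts in WT, against 116 and 122 for clone 1 and 217 and 167 for clone 2. Its row in the table sums the transcripts of p16INK4A, an INK4 inhibitor, and p14ARF, a protein read in another frame, which cannot be separated here. All 4 PCGF6-KO libraries were above both WT libraries, with 6.39 ± 0.455 CPM for clone 1 and 11.2 ± 1.10 CPM for clone 2 (n = 2 each). The ratio to WT was 47.8-fold (exact 95% interval 21.8 to 131, counting error only), and the log2 fold change was 5.54 (SE 0.66, edgeR adjusted p = 0.000215). Leaving out replicate 2 of WT gave a log2 fold change of 4.55 and leaving out replicate 1, the only WT library with CDKN2A counts, gave 10.28, which again depends on the prior count, with the gene called in both. The CDKN2B level was 1.74 to 2.26 times the CDKN2A level in TPM in the 4 PCGF6-KO libraries.

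The 2 genes share their locus with CDKN2B-AS1, a long noncoding RNA on the opposite strand also known as ANRIL, and the next coding genes on either side are MTAP and DMRTA1. On GRCh38 (GENCODE release 44), CDKN2A runs from 21967752 to 21995301 of chromosome 9, CDKN2B from 22002903 to 22009305, both on the reverse strand, and CDKN2B-AS1 from 21994139 to 22128103. CDKN2B-AS1 was at 0 counts throughout WT, against 6 and 18 for clone 1 and 29 and 36 for clone 2 (edgeR adjusted p = 0.0103 for PCGF6-KO). Against an assumed 3 counts over the WT group, the ratio was 13.7-fold for PCGF6-KO, 7.07-fold for clone 1 and 20.9-fold for clone 2. These ratios leave out counting error. The exact 95% lower limit, for counting error only, was 10.9-fold for PCGF6-KO, 5.32-fold for clone 1 and 16.5-fold for clone 2. CDKN2A shares 593 exon bases with CDKN2B-AS1 and CDKN2B shares 0 with any other gene, and since the strand setting of the counting is not given in the sources used here, some reads of CDKN2A and CDKN2B-AS1 cannot be assigned with certainty.

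MTAP, a metabolic enzyme of methionine salvage, had 1256 and 1332 counts in WT and between 1212 and 1348 in PCGF6-KO, and was not called (log2 fold change −0.12, adjusted p = 0.217 by edgeR). DMRTA1, a putative transcription factor whose annotated start is 438 kb from that of CDKN2B, was called higher with a smaller change (log2 fold change 0.92, adjusted p = 0.000578). CDKN2A-DT, a noncoding gene next to CDKN2A, was at 0 counts in all 6 libraries. Across this stretch the widest changes were thus those of the 3 overlapping or adjacent genes CDKN2A, CDKN2B and CDKN2B-AS1.

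CDKN2C (p18INK4C) and CDKN2D (p19INK4D), the INK4 genes outside this locus, behaved otherwise. CDKN2C, on chromosome 1, was at 0 counts throughout WT, with 2, 1, 4 and 2 counts in PCGF6-KO. It was too low to be tested. Against 0 counts, the exact 95% lower limit of the ratio, for counting error only, was 0.910 for the 4 PCGF6-KO libraries and 0.365 for clone 1, so no difference was detectable there at this depth. For clone 2 alone, with 6 counts, that limit was 1.14. Against an assumed 3 counts over the WT group the ratio of clone 2 was 1.93-fold, which leaves out counting error. CDKN2D, on chromosome 19, had 29 and 24 counts in WT, against 28 and 26 for clone 1 and 58 and 51 for clone 2. Clone 1 overlapped WT, and both libraries of clone 2 stood above the other 4.

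The log2 fold change of CDKN2D was −0.15 for clone 1 (edgeR adjusted p = 0.721) and reached 0.98 for clone 2 (0.00403). In clone 2 the call was lost with DESeq2 (adjusted p = 0.0785), without replicate 2 of WT (adjusted p = 0.0524) and in the test against a fold change of 1.5 (adjusted p = 0.106). For all PCGF6-KO libraries together the log2 fold change was 0.52 (SE 0.42, edgeR adjusted p = 0.364).

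CDKN1A, which encodes p21, a CIP/KIP inhibitor of CDK2 complexes, stayed a low transcript. It had 1 and 4 counts in WT, against 15 and 17 for clone 1 and 22 and 26 for clone 2. The 4 PCGF6-KO libraries lay above both WT libraries, at 0.860 ± 0.107 CPM for clone 1 and 1.42 ± 0.288 CPM for clone 2 (n = 2 each). The ratio to WT was 7.38-fold (exact 95% interval 3.03 to 23.3, counting error only), and the log2 fold change was 2.84 (SE 0.61, edgeR adjusted p = 0.00545). The call was lost without replicate 1 of WT, where edgeR gave a log2 fold change of 2.20 with adjusted p = 0.0584. Without replicate 2 of WT the log2 fold change was 4.05 and the call was kept (adjusted p = 0.0183). CDKN1A shares 146 exon bases with DINOL on the opposite strand.

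CDKN1B, which encodes p27, was the one gene with lower values in PCGF6-KO. It had 35.1 and 33.1 CPM in WT, 25.2 and 28.9 CPM in clone 1 and 24.3 and 23.4 CPM in clone 2, and the groups did not overlap. The log2 fold change was −0.42 (SE 0.10, edgeR adjusted p = 0.00985), −0.34 for clone 1 alone (adjusted p = 0.00558) and −0.51 for clone 2 alone (adjusted p = 8.7e-05). The size stayed under the threshold for a call in each comparison. The p did not pass for PCGF6-KO without replicate 1 (adjusted p = 0.0971) or replicate 2 of WT (adjusted p = 0.0567), nor for clone 1 without replicate 1 of WT (adjusted p = 0.0573) or of clone 1 (adjusted p = 0.0810).

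Read per length, the inhibitors changed more in their makeup than in their sum. The 6 inhibitors summed to 61.1 and 57.3 TPM in WT, 63.4 and 70.6 TPM in clone 1 and 77.1 and 77.8 TPM in clone 2. The share of the INK4 genes was 8.45 ± 1.10% (SD, n = 2) in WT, 35.4 ± 1.99% for clone 1 and 52.4 ± 0.782% for clone 2 (n = 2 each), while that of CDKN1B went from 91.2% to 62.7 ± 1.89% and 45.1 ± 1.28%. CDKN2A and CDKN2B together were 25.3 TPM higher in the mean of PCGF6-KO than in WT, and CDKN1B was 15.5 TPM lower. No test was made of these sums.

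CCND1, which encodes cyclin D1 and is known as a target of WNT/beta-catenin and growth factor signaling, had the most reads of the 9 genes. It had 1878 and 1945 counts in WT, against 9628 and 10103 for clone 1 and 10645 and 9796 for clone 2. As CPM this was 116 ± 0.863 CPM in WT (SD, n = 2), 530 ± 36.9 CPM for clone 1 and 599 ± 16.6 CPM for clone 2 (n = 2 each), and the lowest PCGF6-KO library had 504 CPM. The log2 fold change was 2.28 (SE 0.09, edgeR adjusted p = 3.9e-07), a 4.87-fold rise, and it stayed between 2.24 and 2.33 under every alternative run. In TPM, CCND1 moved from above 89.2% of the tested genes in WT to above 98.5% in clone 1 and in clone 2.

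CCND2, which encodes cyclin D2, rose less. It had 88.6 and 90.9 CPM in WT, 166 and 181 CPM in clone 1 and 173 and 184 CPM in clone 2, a log2 fold change of 0.97 (SE 0.07, edgeR adjusted p = 9.4e-06), between 0.94 and 1.00 under every alternative run. CCND2 shares exon bases with CCND2-AS1 and with 2 unnamed genes, and CCND2-AS1 had between 6 and 12 counts in each library. CCND3, which encodes cyclin D3, had 24.2 and 25.3 CPM in WT, 36.9 and 31.7 CPM in clone 1 and 33.0 and 35.03 CPM in clone 2. The groups did not overlap, and the log2 fold change of 0.47 (SE 0.09, edgeR adjusted p = 0.00359) passed on p and stayed under the threshold on size.

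The 3 D-type cyclins together summed to 179 and 184 TPM in WT, 581 and 642 TPM in clone 1 and 620 and 652 TPM in clone 2. CCND1 accounted for 87.7% of the difference between the means of PCGF6-KO and WT. Its share of the sum was 58.8 ± 0.346% (SD, n = 2) in WT, 78.4 ± 0.669% for clone 1 and 80.1 ± 0.266% for clone 2 (n = 2 each), and the share of CCND3 was 10.4 ± 0.187% in WT and 4.25 ± 0.712% and 3.79 ± 0.0437% in the clones. The D-type cyclins stood at 2.94 and 3.20 times the inhibitors in WT, at 9.16 and 9.09 times in clone 1 and at 8.05 and 8.39 times in clone 2, in TPM. The change in cyclins was thus larger than that in inhibitors on this scale, which says nothing of protein.

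CCND1 lies on chromosome 11 from 69641156 to 69654474, and the genes next to it were looked at after their values had been seen. LTO1, which overlaps 497 exon bases of CCND1 on the opposite strand, had 189 to 319 counts per library and was not called (log2 fold change 0.24, adjusted p = 0.236 by edgeR), so its counts were few beside those of CCND1. FGF19, a growth factor gene whose start is 62.9 kb from that of CCND1, had 189 and 197 counts in WT and 743 to 799 in PCGF6-KO (log2 fold change 1.88, standard error 0.10, adjusted p = 1.9e-06). FGF4, at 134 kb, had 23 and 26 counts in WT and 464 to 718 in PCGF6-KO (log2 fold change 4.49, standard error 0.34, adjusted p = 1.4e-05). FGF3, at 178 kb, had 0 counts in WT and at most 6 in PCGF6-KO.

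**Figure D1:**
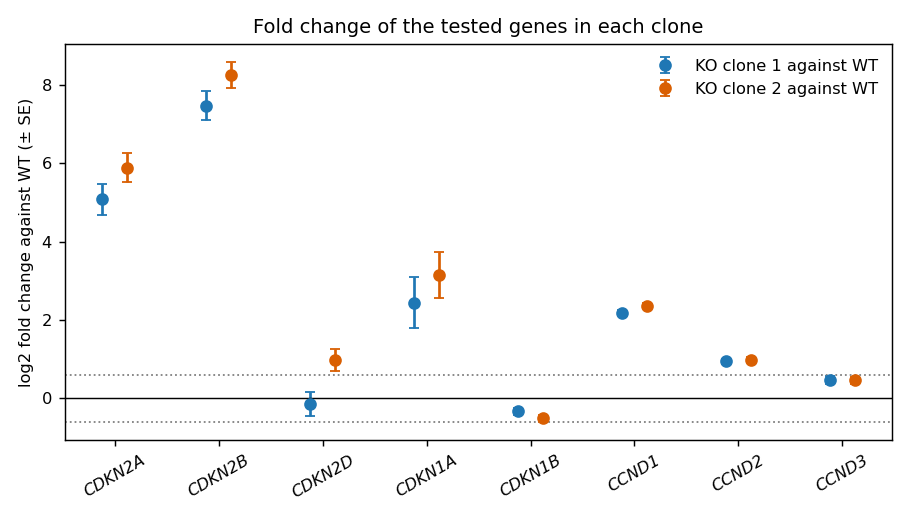
Log2 fold change against WT (y axis, points, with bars of 1 standard error) of the 8 tested genes in clone 1 and clone 2, from the fit with 3 groups; dotted lines mark ±0.6. CDKN2A and CDKN2B lie highest, the points of the clones lie within 0.18 of each other for CCND1, CCND2 and CCND3, and CDKN2D is above the upper line in clone 2 only.

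Each clone was also compared with WT alone, with the same 2 WT libraries in both comparisons. In clone 1, 5 of the 8 tested genes were called higher and 0 lower, where 16% of all tested genes were called higher and 8.8% lower. In clone 2, 6 were called higher and 0 lower, where 16.9% were called higher and 12.5% lower. Here too CDKN2A, CDKN2B and CDKN1A were tested only because of their counts in PCGF6-KO. In both clones 1 gene, CDKN1B, had an unadjusted p under 0.05 in the lower direction, where 24.6% of all tested genes did in clone 1 and 26.9% in clone 2, and DESeq2 called 5 higher and 0 lower. The log2 fold changes of CCND1 were 2.19 in clone 1 and 2.37 in clone 2, those of CCND2 0.95 and 0.99, those of CDKN1A 2.45 and 3.16, those of CDKN2A 5.08 and 5.89, and those of CDKN2B 7.47 and 8.26.

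The direct comparison of the clones called CDKN2A, CDKN2B and CDKN2D higher in clone 2, 3 of the 8 tested genes where 3.73% of all tested genes were called higher and 4.14% lower. CDKN2A differed by 0.81 on the log2 scale (SE 0.18, edgeR adjusted p = 0.00181), CDKN2B by 0.79 (SE 0.13, edgeR adjusted p = 5.0e-05) and CDKN2D by 1.14 (SE 0.27, edgeR adjusted p = 0.00372, and 0.0749 with DESeq2). None was called lower in clone 2, also at an unadjusted p under 0.05 and with DESeq2, which called 2 higher. CDKN2B-AS1 was higher in clone 2 as well (log2 difference 1.56, adjusted p = 0.0127). PCGF6 RNA was also higher in clone 2 than in clone 1 (log2 difference 0.90, adjusted p = 5.4e-05), as was the summed level of the primitive streak and mesendoderm markers, at 1012 to 1026 CPM against 740 to 741 CPM; their part in the difference of the INK4 genes was not tested.

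For the cyclins and CDKN1B no call was made between the clones. CCND1 had a log2 difference of 0.18 (SE 0.06, edgeR adjusted p = 0.0272), CCND2 of 0.04 (SE 0.06, edgeR adjusted p = 0.726), CCND3 of −0.02 (SE 0.09, edgeR adjusted p = 0.936) and CDKN1B of −0.18 (SE 0.10, edgeR adjusted p = 0.229) by edgeR. CDKN1A had a log2 difference of 0.71 (SE 0.40, edgeR adjusted p = 0.235). The signs for CCND2 and CCND3 turned when single libraries were left out.

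Among the kinases that the 9 genes act on, CDK6 was the one called. Of 11 genes for the kinases, cyclins and activators of G1 and S phase, 1 was called higher and 0 lower in PCGF6-KO by edgeR and by DESeq2 (3 lower at an unadjusted p under 0.05), with a median log2 fold change of −0.06. Among all tested genes edgeR called 14.9% higher and 8.7% lower, and 21.6% were lower at an unadjusted p under 0.05. CDK6, a partner of the D-type cyclins, had 366 and 424 counts in WT, against 2211 and 2551 for clone 1 and 2536 and 2380 for clone 2. It rose with a log2 fold change of 2.51 (SE 0.12, edgeR adjusted p = 1.1e-06), from 8.69 ± 0.777 TPM (SD, n = 2) in WT to 47.0 ± 4.34 TPM (n = 4) in PCGF6-KO. CDK4, the more abundant partner at 96.8 ± 3.42 TPM in WT and 99.9 ± 3.18 TPM in PCGF6-KO, was not called (log2 fold change 0.12, adjusted p = 0.188). CDK2 showed a log2 fold change of 0.21 (edgeR adjusted p = 0.0372) and CCNE1, which encodes cyclin E1, of −0.46 (adjusted p = 0.00343), both under the threshold on size.

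Among the other CDK inhibitor genes, CDKN1C, an imprinted gene that encodes p57, was called higher, with 66 and 53 counts in WT and 140 to 203 in PCGF6-KO (log2 fold change 1.35, standard error 0.20, adjusted p = 0.000789 by edgeR). CDKN3, a phosphatase of CDKs, was not called (log2 fold change 0.21, adjusted p = 0.151). Of 13 RB family and E2F genes, 0 were called higher by edgeR and DESeq2 (2 at an unadjusted p under 0.05) and 1, TFDP2, a dimer partner of E2F factors, was called lower (log2 fold change −0.60, edgeR adjusted p = 0.000149). For comparison, edgeR called 14.9% of all tested genes higher and 8.7% lower. RB1 showed a log2 fold change of 0.03 (edgeR adjusted p = 0.818). Of 21 genes of the S, G2 and M phases, 0 were called higher by edgeR and DESeq2 and 1, the replication helicase subunit MCM5, was called lower (log2 fold change −0.75, adjusted p = 0.000303). The median of that list was −0.18, and at an unadjusted p under 0.05 alone 12 of the 21 were lower and 3 higher, where 21.6% of all tested genes were lower and 24.8% higher.

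Genes known to act on these inhibitors and cyclins were read from 3 further lists. Of 14 genes of ubiquitin ligases that degrade CDK inhibitors and D-type cyclins, 0 were called in either direction in PCGF6-KO by edgeR and DESeq2 (5 higher and 3 lower at an unadjusted p under 0.05). The shares of all tested genes were 14.9% called higher and 8.7% called lower, and 24.8% and 21.6% at an unadjusted p under 0.05. SKP2, which targets p27, showed a log2 fold change of 0.31 (edgeR adjusted p = 0.0201). FBXW7, an F-box protein that targets cyclin E, was called higher in clone 2 (log2 fold change 0.74, adjusted p = 3.3e-07) and lay just under the threshold on size in PCGF6-KO (0.599).

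Of 14 transcriptional regulators of the INK4 genes, 7 were called higher and 0 lower by edgeR and DESeq2 (1 lower at an unadjusted p under 0.05), with a median log2 fold change of 1.15. Over all tested genes edgeR called 14.9% higher and 8.7% lower, and 21.6% were lower at an unadjusted p under 0.05. These 7 held both kinds of regulator. BMI1 (log2 fold change 1.81) and CBX8 (1.76) encode Polycomb subunits known to repress the locus, and TBX2, TBX3, TWIST1 and ID1 are also known as repressors of INK4 genes or their activators. KDM6B (1.78) encodes a demethylase of H3K27me3 known to act in the other direction. TWIST1 and TBX2 were at 0 counts throughout WT, and TBX3 went from 2 and 2 counts in WT to 359 to 1149 in PCGF6-KO. TWIST1, TBX2 and TBX3 thus passed the filter only through the PCGF6-KO libraries and could hardly have been called lower. The filter therefore partly set the direction of the count and the median of this list. EZH2 showed a log2 fold change of 0.28 (edgeR adjusted p = 0.00776), under the threshold on size, and SUZ12 of −0.15 (adjusted p = 0.130). CBX7, also a Polycomb gene of this list, went the other way. Its log2 fold change was −0.47 in PCGF6-KO (not called), and it was called lower in clone 2 (−0.68, edgeR adjusted p = 0.0275). ETS1 was called lower in clone 1 (−0.67, edgeR adjusted p = 1.1e-08) and not in PCGF6-KO (−0.46).

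Of 11 regulators of CDKN1A, CDKN1B and CDKN2B, 3 were called higher and 1 lower, with a median of 0.07. The shares of all tested genes were 14.9% higher and 8.7% lower. SMAD3, a TGF-beta effector, had a log2 fold change of 1.41, KLF6 of 1.501 and MYC, a repressor of CDKN1A and CDKN2B, of 0.78. The other SMAD genes of the list were not called. SMAD2 had a log2 fold change of 0.27 (edgeR adjusted p = 0.0320) and SMAD4 of −0.33 (edgeR adjusted p = 0.0111). FOXO1, a factor known to activate CDKN1B, fell by 1.22 on the log2 scale (SE 0.09, edgeR adjusted p = 1.2e-05), from 89.1 ± 3.47 CPM (SD, n = 2) in WT to 38.1 ± 3.43 CPM (n = 4) in PCGF6-KO. Of 12 neighbouring and antisense genes of the 9 genes found in the table, 10 were tested. Called higher were 2, CDKN2B-AS1 and DMRTA1, beside 14.9% of all tested genes. CDKN2B-AS1, at 0 counts in WT, passed the filter only through the PCGF6-KO libraries.

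Over the 6 libraries, the genes whose log2 CPM was most like that of a called gene were named as a description. For CCND1 they were FGF19, ALDH3A2 and PIM1 (Pearson's r 0.9996 or more), for CCND2 CRTC3, SLC25A14 and PLS3, for CDKN2B AC007402.1, ACTA2 and ASRGL1, for CDKN2A OVCH2, VGF and DKK2, and for CDKN1A GANAB, IDH3A and GSDME. With 3 groups of 2 libraries such likeness is common: of 13633 genes compared, between 813 and 1638 had r above 0.95 with each of these 5 genes. Pearson's r also leaves out the size of a change. In PCGF6-KO, GANAB (log2 fold change 0.10), IDH3A (0.46) and GSDME (0.54) were not called, while CDKN1A changed by 2.84. The genes named for the other called genes were all called higher.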

How the data were processed

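RNA-seq libraries of WT PGP1 cells (2), PCGF6-KO clone 1 (2) and PCGF6-KO clone 2 (2) were used. The authors trimmed reads with Trim Galore (0.6.2), aligned them to GRCh38 with HISAT2 (2.1.0), counted them per gene with featureCounts and deposited raw counts with gene lengths. The annotation release, strand setting and handling of multi-mapped reads are not given in the sources used here. ChIP-seq was not analysed here.

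Genes were filtered with filterByExpr on the 2 genotypes and scaled by TMM, and edgeR (4.0.16, R 4.3.3) glmQLFit and glmQLFTest were run with 2 genotypes, and with 3 groups for single clones. CPM used TMM-scaled sizes and TPM the deposited lengths. Standard errors are the fitted log2 fold change over the root of F. The steps were tested on simulated data. One further list of pathway genes, which the counts over all 121 pathway genes include, is not reported here. The 9 genes and all lists were chosen with earlier results of these data known. Named genes were the 9, PCGF6, 10 fixed pathway genes, up to 5 called genes of each list by size and the 3 most alike for each called gene, among genes with a mean log2 CPM of 1 or more. CBX7, CBX8, ETS1, KDM6B, EZH2, SUZ12, SMAD2, SMAD4, CDKN3, FBXW7, MTAP, CDKN2A-DT, LTO1, FGF3, FGF4, CCND2-AS1 and DINOL fall outside this rule. They were named after their values were seen, as were the cell type markers named. Results were recomputed with DESeq2 (1.42.0), with RLE or upper-quartile scaling, other filters and thresholds, a replicate block, only the groups compared, the mean of the clones and leaving out each library.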

Additional observations from a re-analysis of the deposited data

Results flagged for a closer look

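CDKN2A, CDKN2B and CDKN2D differed between the clones in the direct test of clone 2 against clone 1 in the fit with 3 groups. The log2 differences, clone 2 minus clone 1, were 0.81 for CDKN2A, 0.79 for CDKN2B and 1.14 for CDKN2D. For CDKN2D the difference was not called by DESeq2 (adjusted p = 0.0749), and neither was clone 2 against WT (adjusted p = 0.0785). Both clone 2 libraries of CDKN2D lay above WT and those of clone 1 overlapped it, while CDKN2A and CDKN2B were above WT in both clones and further above it in clone 2. For CDKN1B, replicate 2 of clone 1 had 28.9 CPM, against 23.4 to 25.2 CPM in the other PCGF6-KO libraries. Without that library the log2 fold change of CDKN1B in PCGF6-KO was −0.49.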

How the results depend on the processing

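The number of the 9 genes called was 5 for PCGF6-KO and for clone 1 against WT, 6 for clone 2 against WT and 3 between the clones. A filter of 10 counts per library left 2, 2, 3 and 1, because the filter itself removes genes with few WT counts such as CDKN2A, CDKN2B and CDKN1A. The test against a fold change of 1.5 left 0 calls between the clones. Without single libraries the counts were 4 to 5 for PCGF6-KO, 5 to 5 for clone 1, 5 to 6 for clone 2 and 3 to 3 between the clones. With the replicate number as a block they were 5, 5, 6 and 3. Replicate numbers did not pair the libraries (r of the replicate differences 0.068 and 0.080 between WT and the clones, 0.194 between the clones). Of 121 pathway genes outside the 9, the calls numbered 21 for PCGF6-KO, 23 for clone 1, 25 for clone 2 and 8 between the clones. An adjusted p alone called 56, 61, 75 and 27 in the 4 comparisons, and between the clones DESeq2 called 4, the filter of 10 counts 5, the test against 1.5-fold 3 and fits without single libraries 5 to 8. Log2 values that were not called changed sign without 1 library. CDKN2D in clone 1 ranged from −0.289 to 0.00942, positive without replicate 1 of WT. Between the clones CCND2 ranged from −0.0235 to 0.106, at −0.0235 without replicate 1 of clone 1 and −0.00578 without replicate 2 of clone 2, and CCND3 from −0.120 to 0.0983, at 0.0983 without replicate 1 of clone 1 and 0.0279 without replicate 1 of clone 2. Without length correction CCND1 was 50.3% of the D-type cyclins in WT and 72.8% in PCGF6-KO, and the INK4 genes 5.11% of the inhibitors in WT. Depth limits CDKN2C in all groups and CDKN2A, CDKN2B and CDKN1A in WT.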
